A study of Homo sapiens with 6 samples.

Results

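Skeletal muscle nuclei are described here in teratomas grown from H1, an established human embryonic stem cell line. They are the human nuclei with at least 1 UMI, a counted RNA molecule, for at least 3 of the 7 genes NEB, MYH3, MYH8, RYR1, MYOG, ACTN2 and MYBPC1. The nuclei were thus chosen by measured UMIs of these 7 genes. The rule found 178 nuclei among 54030 human nuclei, and the other 53852 are called the other nuclei below. A human nucleus was a barcode with at least 500 human UMIs, at least 300 human genes and at least 90% of its UMIs on human genes. Single-nucleus RNA was sequenced in 6 libraries, 2 from each of 3 groups. The groups were a knockout (KO) of LNCPRESS1, a long non-coding RNA of pluripotent cells, a line labelled ΔATG (DATG below) and wild type (WT). The labels do not say which base change ΔATG is, whether a group is 1 clone, or whether replicates 1 and 2 are separate tumours. The p-values therefore cover no spread beyond these libraries. In all groups the cells were put with matrigel under the flank skin of NSG mice, an immunodeficient strain that keeps its own muscle, and the frozen tumours were dissociated to nuclei. The age of the mice and the time of growth are not used here.

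Skeletal muscle forms when mononucleated myoblasts leave the cell cycle and fuse into multinucleated fibres. As background, PAX3 and PAX7 mark muscle progenitors, MYF5 and MYOD1 commit cells to the lineage, and MYOG and MYF6 drive differentiation. Fibres fill with sarcomeres, repeated units of myosin thick filaments and actin thin filaments anchored at Z discs, and developing fibres use embryonic and perinatal forms of these proteins before adult forms replace them. Teratomas, tumours of mixed tissues, often hold small islands of such muscle.

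The libraries held 35785812 to 47574535 UMIs and 5542 to 12254 human nuclei each. The muscle nuclei had a median of 5032 and 6522 human UMIs in the KO libraries, 4529 and 6074 in the DATG libraries and 16837 and 36293 in the WT libraries. In the other nuclei the medians were 2681 and 3912 in KO, 2658 and 2756 in DATG, and 4043 and 2664 in WT. The WT muscle nuclei were thus the deepest, and the 5 nuclei of WT replicate 2 stood farthest from the rest. LNCPRESS1 had 0 UMIs in the 178 nuclei and 19 in the other nuclei, so the genotype could not be read from the muscle nuclei: with 2281338 UMIs in all, a count of 0 allows up to 1.32 CPM (UMIs of a gene per 1000000 human UMIs). Of 53707 distinct barcodes of human nuclei 322 occurred in more than 1 library, 1 muscle nucleus among them, and no barcode was a muscle nucleus in more than 1 library. A doublet caller marked 4236 of the 54030 human nuclei and 17 of the 178. In DATG replicate 2, UMIs of adult mouse muscle genes were in 10 of the 12 muscle nuclei and in 70.2% of the other human nuclei. In that library 22 mouse nuclei had a UMI for at least 3 of the mouse orthologues of the rule genes, with 996 orthologue UMIs. In these nuclei 0 of 5938 human UMIs were of the 7 rule genes. The other human nuclei of the library had only 0.344 such UMIs in every 10000, so the 0 does not set the mouse nuclei apart from them.

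The 7 genes that chose the nuclei are given as a description, without a test. NEB, nebulin of the thin filament, had a UMI in 173 of the 178 nuclei. RYR1, the calcium release channel of the sarcoplasmic reticulum, had a UMI in 150 nuclei, and MYH3, the embryonic myosin heavy chain, in 140. ACTN2, an alpha-actinin of the Z disc, was seen in 120 nuclei, MYBPC1, the slow form of myosin-binding protein C, in 74, MYOG, the transcription factor myogenin, in 57 and MYH8, the perinatal myosin heavy chain, in 53. The same genes had a UMI in 0.124% (MYOG) to 7.38% (NEB) of the other nuclei, which were shallower. After thinning each nucleus to 1000 UMIs, which left out 4 muscle nuclei and 4157 other nuclei, MYH3 had a UMI in 48.9% of muscle nuclei and 0.781% of other nuclei, and 83 of the 174 thinned nuclei still met the rule. The muscle nuclei held 24.8% (NEB) to 68.5% (MYH3) of a gene's UMIs in human nuclei.

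Summed over the nuclei of a library, MYH3 reached 1344 and 1538 CPM in the KO libraries, 2940.5 and 695 CPM in the DATG libraries and 759 and 53.1 CPM in the WT libraries, against 2.54 to 10.9 CPM in the other nuclei. MYOG reached 58.1 and 55.0 CPM in the KO libraries, 123 and 57.9 CPM in the DATG libraries and 13.4 and 9.65 CPM in the WT libraries, against 0.0694 to 0.711 CPM in the other nuclei. MYH8 stood at 116 and 134 CPM in the KO libraries, 213 and 0 CPM in the DATG libraries and 38.4 and 0 CPM in the WT libraries, against 0.0406 to 1.35 CPM. DATG replicate 1 was highest for these 3 genes and WT replicate 2 lowest for MYH3 and MYOG, while MYH8 had 0 UMIs in DATG replicate 2 and WT replicate 2. In DATG replicate 2 a single nucleus with 22072 UMIs held 192 of the 296 UMIs of the 7 genes. In WT replicate 2 a called doublet with 2463 UMIs held 18 of 35. The levels of these 2 libraries thus rest largely on 1 nucleus each.

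The label was checked with 23 other skeletal muscle genes that the rule did not use, and it held for some of the nuclei. The 69 nuclei with 5 to 7 of the 7 genes had a median of 12 of these markers and never fewer than 6, at a median depth of 5716 UMIs. The 34 nuclei with 4 genes had a median of 6 markers at 3926.5 UMIs. The 75 nuclei with 3 genes, just inside the threshold, had a median of 2 markers at 11152 UMIs, and 40 of them had fewer than 3. The 570 nuclei with 2 genes, just outside it, had a median of 1 marker at 7353 UMIs. UMIs of the 23 markers made up 122 of every 10000 in the nuclei with 5 to 7 genes, 25 in those with 4, 3.96 in those with 3 and 1.49 in nuclei with none of the 7. Pooled over libraries the nuclei with 3 genes were thus deeper and lower in muscle RNA than those with more. The order of depth differed in some libraries. In DATG replicate 1 the 16 nuclei with 3 genes had a median of 3311.5 UMIs. Those with 4 had 4761.5 and those with 5 to 7 had 4924.5. These 16 nuclei had 11.8 marker UMIs of every 10000, against 1.58 in nuclei of that library with none. In DATG replicate 2 the median with 3 genes was 8134.5 UMIs, below the 22072 of the 1 nucleus with 5 to 7. In WT replicate 2 it was 36293, below the 62556 of the 1 nucleus with 4. Nuclei with 3 genes held 59.1% of all UMIs of the 178 nuclei and 5.93% of their UMIs of the 23 markers.

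**Figure D1:**
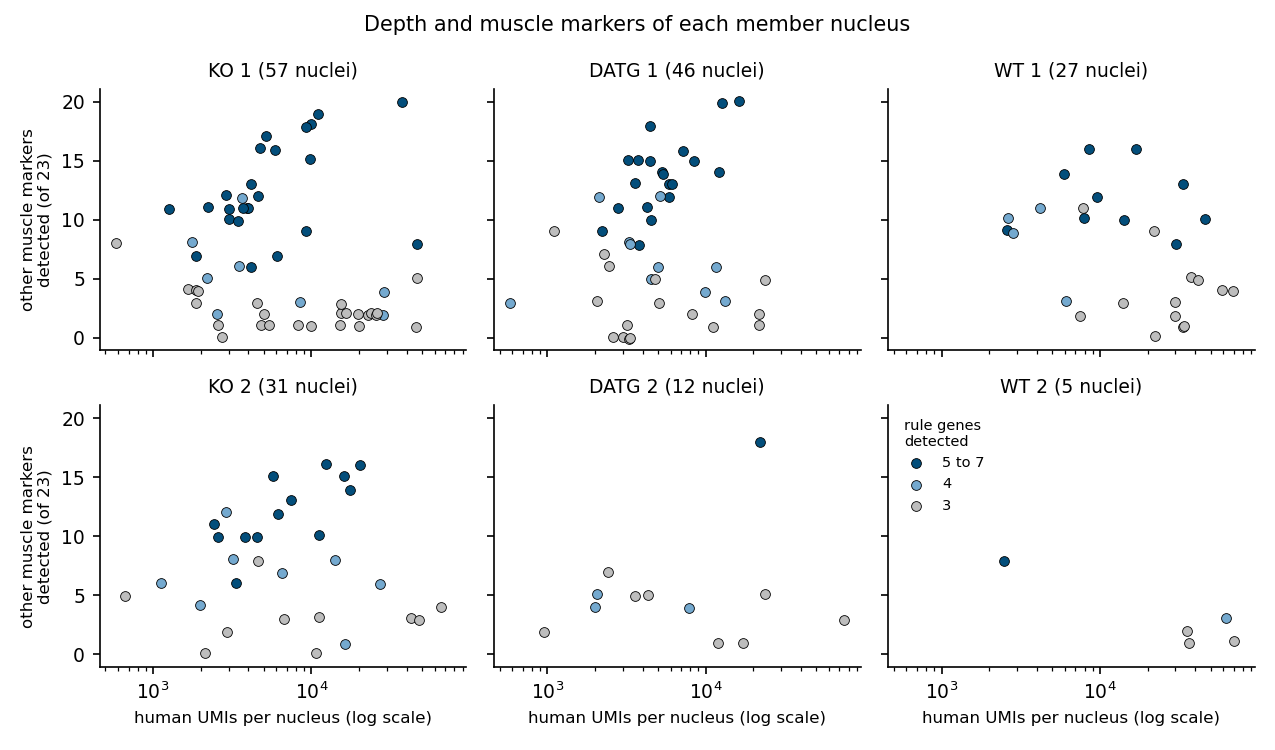
Each point is 1 of the 178 nuclei, with its human UMIs on the horizontal axis (log scale) and the number of the 23 other muscle markers with a UMI on the vertical axis (jittered), by library and coloured by how many of the 7 rule genes had a UMI. The 69 nuclei with 5 to 7 genes all had 6 or more markers, whereas many of the 75 nuclei with 3 genes lay above 10000 UMIs with few markers, among them most of WT replicate 2.

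The nuclei with 5 to 7 genes were spread unevenly: 24 and 13 in the KO libraries, 20 and 1 in the DATG libraries and 10 and 1 in the WT libraries. In WT replicate 2 the only such nucleus, itself a called doublet, had a depth of 2463 UMIs and 8 of the 23 markers. The 3 nuclei with 3 genes in that library had a median of 36293 UMIs and 1 marker, and its nucleus with 4 genes had 62556 UMIs and 3 markers. Summed levels weight nuclei by depth, and nuclei with 3 genes held 55.4% and 51.2% of the muscle nuclei's UMIs in the KO libraries, 39.8% and 80.3% in the DATG libraries and 68.0% and 68.6% in the WT libraries. In DATG replicate 2 a single called doublet with 3 genes and 74595 UMIs gave 43.2%, and in WT replicate 2 another with 70613 UMIs gave 34.1%. The summed levels in each library, and their order between groups, therefore depend on these nuclei as well as on those rich in muscle RNA.

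Muscle nuclei made up 0.565% and 0.390% of human nuclei in the KO libraries (57 of 10096 and 31 of 7945, exact 95% intervals 0.428% to 0.731% and 0.265% to 0.553%). In the DATG libraries the shares were 0.380% and 0.197% (46 of 12103 and 12 of 6090, intervals 0.278% to 0.507% and 0.102% to 0.344%). In the WT libraries they were 0.487% and 0.0408% (27 of 5542 and 5 of 12254, intervals 0.321% to 0.708% and 0.0132% to 0.0952%). The WT libraries thus lay farther apart than any KO or DATG pair, and they overlapped both other groups in range, whereas both KO shares lay above both DATG shares. The Clopper-Pearson intervals cover counting error only.

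**Figure D2:**
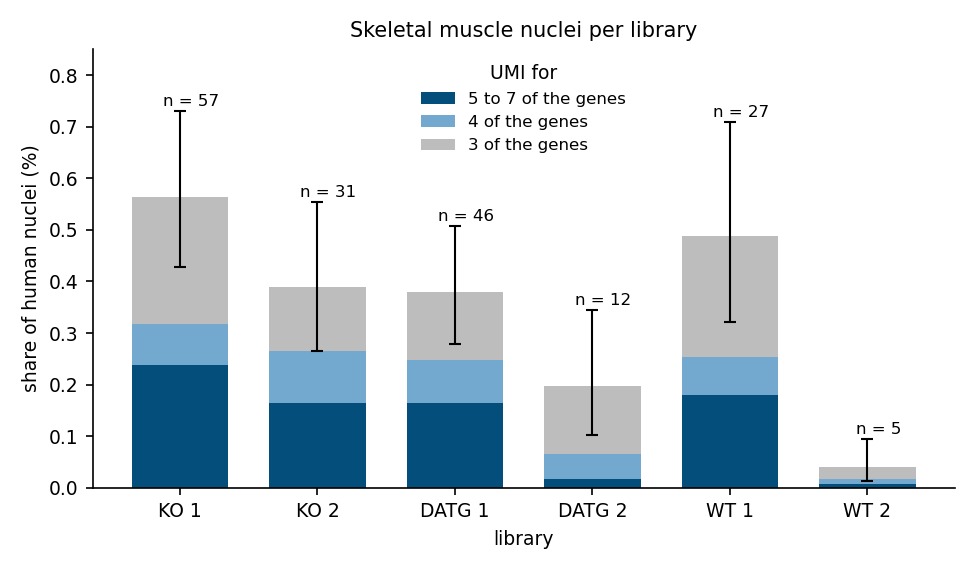
Share of human nuclei that met the rule in each library (bars, %), split by how many of the 7 genes had a UMI, with exact 95% binomial intervals for the whole bar and the number of nuclei above it. The WT libraries, at 0.487% and 0.0408%, lie on both sides of the DATG libraries and of KO replicate 2.

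None of the differences in share passed the test, and with 2 libraries against 2 the smallest p the exact test allows is 0.33. The mean share was 0.477% ± 0.123 in KO and 0.264% ± 0.316 in WT (SD, n = 2 each), a difference of 0.213 percentage points (two-sided exact permutation p = 0.667). DATG, at 0.289% ± 0.129, differed from WT by 0.0246 points (exact permutation p = 1) and from KO by -0.189 points (exact permutation p = 0.33). Without WT replicate 2, KO differed from WT by -0.00981 points and DATG from WT by -0.199 points, so the direction against WT rests on that library. Counting only nuclei with 5 to 7 genes, the shares were 0.238% and 0.164% in KO, 0.165% and 0.0164% in DATG, and 0.180% and 0.00816% in WT. After thinning to 1000 UMIs the mean shares were 0.257% ± 0.00416 in KO, 0.152% ± 0.110 in DATG and 0.0852% ± 0.108 in WT (SD, n = 2 each).

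Muscle nuclei were compared with the other nuclei of the same library for 24182 genes, leaving out the 7 that chose them. Counts were summed per library and tested with edgeR's quasi-likelihood test with the library as a block, and a gene was called at a Benjamini-Hochberg adjusted p under 0.05. By that rule 784 genes were higher in muscle nuclei (3.24% of those tested) and 866 were lower (3.58%). The median log2 fold change of all tested genes was -0.17 with TMM scaling and -0.01 with RLE scaling, under which 977 were higher and 442 lower, so the number of lower genes depends on the scaling. Without WT replicate 2 there were 892 higher and 900 lower genes, and without DATG replicate 1 there were 567 and 544. Fewer nuclei with a gene and less RNA per nucleus cannot be told apart in these sums. Below, a fold change compares muscle nuclei over other nuclei, and adjusted p-values are from edgeR over all tested genes. The SE given with a fold change is its size divided by the square root of edgeR's F statistic, so it is not a separate estimate of the spread. edgeR's test draws a gene's spread in part from all genes, so a very small p is not a sign of a well-measured gene. MYMX, with 8 UMIs in muscle nuclei, has a smaller adjusted p below than TTN, with 4047.

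The called genes with the largest increases that were higher in all 6 libraries and reached 50 CPM were MYBPH, MYL1, TRIM55, CASQ2, MYPN, MYOZ2, MYL11, ACTC1, MYO18B and TNNT2, all genes of the sarcomere or its calcium store. MYBPH, which encodes myosin-binding protein H, stood at 82.3 and 60.3 CPM in the KO libraries, 226 and 81.1 CPM in the DATG libraries and 75.1 and 9.65 CPM in the WT libraries, against 0.0925 to 1.40 CPM in the other nuclei (log2 fold change 7.35 ± 0.32 SE, adjusted p = 2.75e-110). MYL1, an essential light chain of fast myosin, stood at 271 and 197 CPM in the KO libraries, 761 and 98.5 CPM in the DATG libraries and 85.1 and 33.8 CPM in the WT libraries, against 0.0463 to 5.62 CPM (log2 fold change 7.05 ± 0.22 SE, adjusted p = 4.1e-85). For both genes every library's muscle nuclei were above the other nuclei of all 6 libraries, with DATG replicate 1 highest and WT replicate 2 lowest. The other 8 had log2 fold changes of 5.65 (TNNT2) to 6.52 (TRIM55), a troponin T that heart and embryonic skeletal muscle share and a ubiquitin ligase of the sarcomere. The adjusted p was 0.0361 for TRIM55 and 0.0305 for TNNT2, and 2.63e-15 or less for the other 8 genes of the 10.

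The stretches upstream of MYBPH, MYL1 and MYH8 are shown because MyoD-family factors are known to bind the E-box, CANNTG, in muscle promoters. Each runs 5′ to 3′ on the minus strand up to the gene's start, from RefSeq (GRCh38.p14), with E-boxes in capitals. MYBPH is at chr1:203175827-203176076, MYL1 at chr2:210315191-210315424, ending before the start in GENCODE 29, and MYH8 at chr17:10421951-10422200.
MYBPH: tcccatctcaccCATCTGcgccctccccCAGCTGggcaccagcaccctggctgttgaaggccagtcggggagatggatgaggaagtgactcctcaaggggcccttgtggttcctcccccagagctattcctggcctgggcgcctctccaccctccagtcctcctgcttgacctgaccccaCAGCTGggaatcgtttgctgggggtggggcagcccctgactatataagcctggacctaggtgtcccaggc
MYL1: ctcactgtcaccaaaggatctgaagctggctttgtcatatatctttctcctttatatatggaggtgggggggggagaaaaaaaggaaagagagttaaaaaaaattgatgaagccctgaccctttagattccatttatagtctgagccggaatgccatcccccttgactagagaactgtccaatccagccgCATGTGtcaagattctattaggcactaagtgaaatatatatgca
MYH8: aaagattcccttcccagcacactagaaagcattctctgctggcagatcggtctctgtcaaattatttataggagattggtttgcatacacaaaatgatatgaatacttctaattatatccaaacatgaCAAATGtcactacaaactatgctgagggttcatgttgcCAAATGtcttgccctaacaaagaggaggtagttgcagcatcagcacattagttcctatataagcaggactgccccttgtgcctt

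The MYBPH stretch held 3 E-boxes, 2 of them CAGCTG, the MYL1 stretch 1 and the MYH8 stretch 2, and the E-box nearest to the start began 70, 60 and 84 bases upstream. CANNTG reads the same on both strands and occurred within 250 bases upstream of the start in 66.8% of 690 RefSeq promoters of genes called higher, in 56.9% of 21112 promoters of tested genes and in 61.8% of all 35116. CAGCTG, which is part of CANNTG, occurred in 21.3%, 13.8% and 14.0%. Several promoters can belong to 1 gene, and a match of letters is not a binding site.

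Of 15 tested myogenic regulators 7 were higher in muscle nuclei and 0 lower, with a median log2 fold change of 0.94. MYOD1, the factor that commits cells to muscle, stood at 30.7 and 23.6 CPM in the KO libraries, 66.5 and 17.4 CPM in the DATG libraries and 8.34 and 0 CPM in the WT libraries, against 0.0231 to 0.458 CPM in the other nuclei (log2 fold change 6.89 ± 0.43 SE, adjusted p = 5e-55). MYF6, a relative of MYOG that acts late, stood at 61.3 and 23.6 CPM in the KO libraries, 23.3 and 5.79 CPM in the DATG libraries and 3.34 and 0 CPM in the WT libraries, against 0.162 to 0.458 CPM (log2 fold change 5.61 ± 0.45 SE, adjusted p = 2.26e-32). Both were above the other nuclei in 5 of 6 libraries and had 0 UMIs in WT replicate 2. MEF2C, a cofactor of the MyoD family, reached 699 and 1205 CPM in the KO libraries, 1718 and 521 CPM in the DATG libraries and 569 and 149.5 CPM in the WT libraries, against 50.1 to 102 CPM (log2 fold change 3.01 ± 0.54 SE, adjusted p = 0.0400), higher in all 6 libraries.

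VGLL2, a cofactor of TEAD factors, rose by 6.25 on the log2 scale (adjusted p = 5.7e-46), PITX3 by 5.14 (adjusted p = 3.45e-19) and EYA4, a transcriptional coactivator, by 1.89 (adjusted p = 0.00150). PAX3 (log2 fold change -0.17), SIX4 (0.94), EYA1 (0.32), MEF2A (0.03), MEF2D (0.50) and TCF12 (-0.04) did not pass the test. MYF5 had 0 UMIs in the 178 nuclei, which allows up to 1.32 CPM and up to 1.69% of nuclei with a UMI, and it was at most 0.242 CPM in the other nuclei.

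Among 13 tested satellite and progenitor genes 3 were higher and 2 lower (median 0.81). PAX7, which marks satellite cells, was called higher (log2 fold change 1.17 ± 0.27 SE, adjusted p = 0.000617), at 45.2 and 34.1 CPM in the KO libraries, 23.3 and 81.1 CPM in the DATG libraries and 26.7 and 4.82 CPM in the WT libraries, against 5.64 to 23.5 CPM. Its level was 25.3 CPM in nuclei with 5 to 7 rule genes, 19.9 CPM in those with 4 and 42.3 CPM in those with 3, against 11.7 CPM in nuclei with none, and the call was lost with at least 4 or at least 5 genes and without DATG replicate 2 (log2 fold change 0.80, adjusted p = 0.0760). Among these classes PAX7 was highest in the nuclei with 3 rule genes. It was not confined to muscle nuclei, with 79 UMIs there and 2995 in the other nuclei. Whether its UMIs in muscle nuclei came from satellite cells was not tested. CDH15, M-cadherin of myoblasts and satellite cells, had 219.6, 169 and 33.4 CPM in the same 3 classes, against 1.40 CPM in nuclei with none, so it was highest in the nuclei with 5 to 7, and it rose by 5.69 on the log2 scale (adjusted p = 5.51e-76). CALCR, the calcitonin receptor of quiescent satellite cells, was called higher on 17 UMIs, but without WT replicate 1 its log2 fold change was -0.22 (adjusted p = 0.954). CXCR4 and MEOX2 were lower, calls that were lost with RLE scaling.

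Of 14 genes of fusion and adhesion 7 were higher and 2 lower (median 0.42). MYMK, the membrane protein myomaker without which myoblasts do not fuse, had 28 of its 40 human UMIs in muscle nuclei and stood at 16.1 and 7.86 CPM in the KO libraries, 23.3 and 5.79 CPM in the DATG libraries and 11.7 and 0 CPM in the WT libraries, against 0 to 0.135 CPM (log2 fold change 7.50 ± 0.53 SE, adjusted p = 5.47e-42). MYMX, its partner myomixer, had 8 UMIs in muscle nuclei, from 3 libraries (log2 fold change 5.83 ± 0.81 SE, adjusted p = 1.15e-09). In nuclei with 5 to 7 rule genes MYMK had a UMI in 18 of 69 nuclei and MYMX in 5, against 0.0236% and 0.0215% of nuclei with none. NCAM1, JAM2, JAM3 and DYSF were also higher, and KIRREL3 and DOCK5 were lower.

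**Figure D3:**
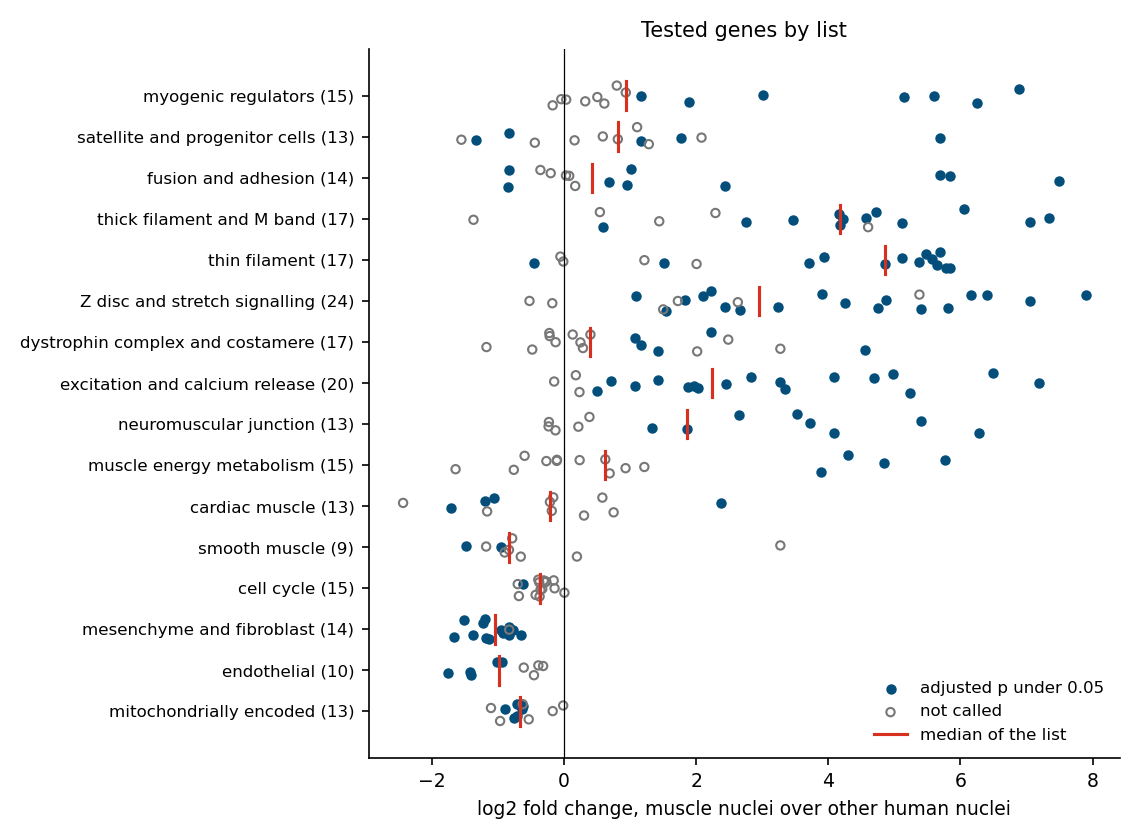
Log2 fold change of muscle nuclei over other nuclei for the tested genes of 16 lists (filled points passed the test, open points did not, red lines are list medians, and the number of tested genes is in brackets). Genes with 0 UMIs in muscle nuclei are not drawn. The sarcomere, calcium and junction lists lie to the right and the mesenchyme and endothelial lists to the left.

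Among the genes of the contractile apparatus, 12 of 17 thick filament and M band genes were higher and 0 lower (median 4.18), and 12 of 17 thin filament genes were higher and 1, NEBL, lower (median 4.85), against a median of -0.17 for all genes. TTN, the giant spring titin, stood at 1788 and 2377 CPM in the KO libraries, 4505 and 1019.8 CPM in the DATG libraries and 778 and 164 CPM in the WT libraries, against 52.7 to 115 CPM (log2 fold change 4.16 ± 0.78 SE, adjusted p = 0.0474). It was higher in all 6 libraries. ACTC1, an alpha-actin of heart and embryonic muscle, stood at 944 and 639 CPM in the KO libraries, 1788 and 116 CPM in the DATG libraries and 113 and 24.1 CPM in the WT libraries, against 1.60 to 23.3 CPM (log2 fold change 5.69 ± 0.27 SE, adjusted p = 2.63e-15). ACTA1, the alpha-actin of adult fibres, stood at 115 and 55.0 CPM in the KO libraries, 239 and 0 CPM in the DATG libraries and 0 and 0 CPM in the WT libraries, against 0.0925 to 2.25 CPM (log2 fold change 5.84 ± 0.41 SE, adjusted p = 5.29e-42). ACTA1 was thus seen in 3 libraries and not detected in the other 3, where a count of 0 allows 5.01 CPM (WT replicate 1), 14.5 CPM (WT replicate 2) and 17.4 CPM (DATG replicate 2). Actin and myosin genes have close copies, and how reads were shared between them is not stated in the labels or headers.

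The embryonic and perinatal myosins MYH3 and MYH8 were among the genes that chose the nuclei, so their presence is no result. Of the other myosin heavy chains, MYH7, the slow myosin of heart and slow fibres, had 23 UMIs from 3 libraries (log2 fold change 4.72 ± 0.50 SE, adjusted p = 6.14e-19). Among myosins of mammalian fast fibres, MYH1 had 0 UMIs in muscle nuclei, MYH2 had 2 and MYH4 had 5. MYH4 was called higher on those 5 UMIs (log2 fold change 2.76 ± 0.83 SE, adjusted p = 0.0255), a call that was lost without KO replicate 1, KO replicate 2 or DATG replicate 1 (adjusted p up to 0.326). MYL4, a light chain of embryonic muscle and atria, rose by 5.12 on the log2 scale (adjusted p = 0.0323). Of 9 tested slow fibre genes 8 were higher, and of 11 fast fibre genes 9, so neither set was missing. TNNT1, the slow troponin T, stood at 255 and 212 CPM in the KO libraries, 571 and 57.9 CPM in the DATG libraries and 31.7 and 4.82 CPM in the WT libraries, against 1.84 to 8.40 CPM. TNNT3, the fast form, stood at 192 and 191 CPM in the KO libraries, 339 and 52.1 CPM in the DATG libraries and 118 and 4.82 CPM in the WT libraries, against 1.70 to 6.04 CPM. Among the 69 nuclei with 5 to 7 rule genes, 53 had a UMI for TNNT1, 59 for TNNT3 and 49 for both, so slow and fast forms were found in the same nuclei.

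At the Z disc 18 of 24 genes were higher and 0 lower (median 2.95). XIRP1 (log2 fold change 7.89, 17 UMIs), KLHL40 (7.05, 25 UMIs) and MYPN (6.40, 192 UMIs), which bind or protect thin filament proteins, had the largest increases. CSRP3, the muscle LIM protein, stood at 51.6 and 78.6 CPM in the KO libraries, 46.5 and 5.79 CPM in the DATG libraries and 3.34 and 0 CPM in the WT libraries, against 0.0811 to 1.05 CPM (log2 fold change 5.82 ± 0.44 SE, adjusted p = 4.56e-36). The dystrophin complex and costamere list gave 5 of 17 genes higher and 0 lower (median 0.40), among them DMD, dystrophin itself, at 844 and 1887 CPM in the KO libraries, 1518 and 1101 CPM in the DATG libraries and 1045 and 381 CPM in the WT libraries, against 226 to 467 CPM (log2 fold change 1.42 ± 0.14 SE, adjusted p = 2.08e-22). DMD was widely expressed outside muscle, with a UMI in 40.4% of nuclei with none of the 7 genes.

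Of 20 genes of excitation and calcium release 17 were higher and 0 lower (median 2.24). CACNA1S, the voltage sensor that opens RYR1, stood at 21.0 and 60.3 CPM in the KO libraries, 96.4 and 29 CPM in the DATG libraries and 45.1 and 4.82 CPM in the WT libraries, against 0.0811 to 0.485 CPM (log2 fold change 7.19 ± 0.42 SE, adjusted p = 7.7e-61), and 98 of its 154 human UMIs lay in muscle nuclei. TRDN, triadin, which links RYR1 to calsequestrin, stood at 215 and 288 CPM in the KO libraries, 601 and 110.1 CPM in the DATG libraries and 122 and 4.82 CPM in the WT libraries, against 3.13 to 6.08 CPM (log2 fold change 5.23 ± 0.83 SE, adjusted p = 0.0270). CASQ2 rose by 6.49 on the log2 scale (adjusted p = 1.72e-84), whereas CASQ1, the calsequestrin of adult fast fibres, had 1 UMI in muscle nuclei and was not tested. SCN4A, the sodium channel of adult fibres, had 0.

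At the neuromuscular junction 8 of 13 genes were higher and 0 lower (median 1.87). The acetylcholine receptor of fetal muscle contains the gamma subunit, which the epsilon subunit replaces after innervation. CHRNG, the gamma subunit, stood at 45.2 and 39.3 CPM in the KO libraries, 139.5 and 17.4 CPM in the DATG libraries and 30.0 and 4.82 CPM in the WT libraries, against 0.324 to 1.59 CPM (log2 fold change 5.40 ± 0.40 SE, adjusted p = 6.52e-39). CHRNE, the epsilon subunit, stood at 3.23 and 5.24 CPM in the KO libraries, 13.3 and 34.8 CPM in the DATG libraries and 5.01 and 4.82 CPM in the WT libraries, against 4.80 to 9.21 CPM (log2 fold change 0.22 ± 0.45 SE, adjusted p = 0.865). CHRNG was above the other nuclei in every library, and CHRNE overlapped them. In the 69 nuclei with 5 to 7 rule genes CHRNG had a UMI in 40 and CHRNE in 2, against 0.284% and 2.21% of nuclei with none. CHRNA1, CHRNB1 and CHRND, the other receptor subunits, rose by 6.28, 2.64 and 4.08 on the log2 scale, and MUSK, DOK7 and RAPSN, which cluster the receptor, by 1.87, 3.53 and 3.72. These 6 genes were called in each of 15 alternatives.

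Of 15 tested genes of muscle energy metabolism 4 were higher (median 0.63): CKM, muscle creatine kinase (log2 fold change 4.30), ENO3, muscle enolase (3.89), MB, myoglobin (4.85), and COX6A2, a subunit of cytochrome oxidase (5.76). CKM stood at 22.6 and 5.24 CPM in the KO libraries, 56.5 and 5.79 CPM in the DATG libraries and 11.7 and 0 CPM in the WT libraries, against 0.203 to 1.51 CPM. PYGM, PFKM, SLC2A4, PPARGC1A and the other 7 genes did not pass the test.

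Some calls were lost when 1 library was left out. TTN, MEF2C, TRIM55, TRDN, TNNT1, TNNT2, TNNT3, MYL4 and TP63 lost their call without KO replicate 1, KO replicate 2, DATG replicate 1 or WT replicate 1. TTN, MEF2C, TRDN and TP63 lost it without DATG replicate 2 as well, and TRIM55 without WT replicate 2. Over all these fits the adjusted p-values lay between 0.0577 and 0.155 and the log2 fold changes between 2.79 (MEF2C) and 6.81 (TRIM55). COL25A1 (adjusted p = 0.101) and NES (adjusted p = 0.110), described next, lost their call without DATG replicate 2, and EYA4 without KO replicate 2 or DATG replicate 1 (adjusted p up to 0.120). Among genes called lower, KIRREL3, MEOX2, NEBL, ACTA2, HAND2, TBX5, TOP2A and CXCR4 each lost the call without at least 1 library (adjusted p up to 0.33), with the same direction. So did CDH5, TEK, EGFL7 and EMCN of the endothelial list (adjusted p up to 0.337), and PDGFRA and PRRX1 of the mesenchyme list. It also held for SOX2, SLC1A3, STMN2 and TUBB3 of the neural lists (adjusted p up to 0.426), and for MT-ND1, MT-ND2, MT-ND4, MT-CO2 and MT-ATP6 (adjusted p up to 0.520).

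**Figure D4:**
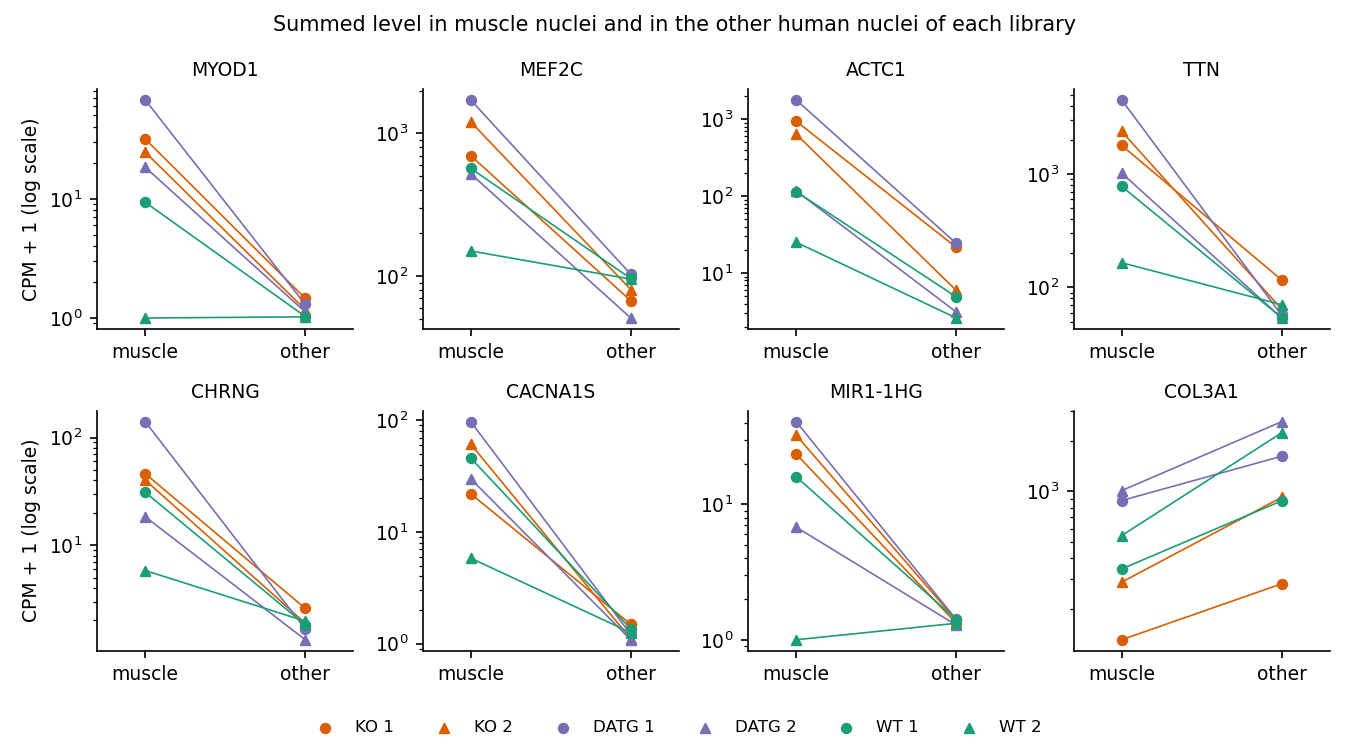
Level of 8 genes (CPM + 1, log scale) summed over muscle nuclei (left) and other nuclei (right) of each library, with a line for each library. MYOD1 and MIR1-1HG had 0 UMIs in muscle nuclei of WT replicate 2, and COL3A1 was lower in muscle nuclei of all 6 libraries.

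The primary transcripts of muscle microRNAs were higher too. MIR1-1HG (chr20:62550453-62570764, plus strand, GRCh38), which holds the loci of miR-1 and miR-133a on chromosome 20, stood at 22.6 and 31.4 CPM in the KO libraries, 39.9 and 5.79 CPM in the DATG libraries and 15 and 0 CPM in the WT libraries, against 0.284 to 0.413 CPM (log2 fold change 5.63 ± 0.40 SE, adjusted p = 5.88e-41), with 48 of its 129 human UMIs in muscle nuclei. MIR133A1HG on chromosome 18 stood at 38.7 and 41.9 CPM in the KO libraries, 79.7 and 5.79 CPM in the DATG libraries and 15 and 4.82 CPM in the WT libraries, against 0.365 to 8.24 CPM (log2 fold change 2.71 ± 0.35 SE, adjusted p = 2.4e-12). Both were named after their values were seen, and WT replicate 2 was lowest for both. The mature forms, which are known to act in muscle differentiation, were not measured. Their sequences at chr20:62554351-62554372 and chr20:62564970-62564991 (RefSeq, GRCh38.p14, plus strand) are shown with the seed, bases 2 to 8, in capitals, and the seeds differ.
hsa-miR-1-3p: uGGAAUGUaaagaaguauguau
hsa-miR-133a-3p: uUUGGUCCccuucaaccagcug

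Other genes named after their values were seen include SMYD1, a methyltransferase of striated muscle, with 103 of its 131 human UMIs in muscle nuclei (log2 fold change 8.20 ± 0.45 SE, adjusted p = 1.08e-70). COL25A1, a membrane collagen that motor axons need to reach muscle in the mouse, stood at 712 and 655 CPM in the KO libraries, 2067 and 1217 CPM in the DATG libraries and 337 and 265 CPM in the WT libraries, against 122 to 207 CPM (log2 fold change 1.97 ± 0.15 SE, adjusted p = 2.73e-22). TP63, of the squamous epithelium list, was higher at 137 and 438 CPM in the KO libraries, 608 and 330.3 CPM in the DATG libraries and 150.2 and 9.65 CPM in the WT libraries, against 9.53 to 15.8 CPM (log2 fold change 4.06 ± 0.71 SE, adjusted p = 0.0365), while the other 5 tested genes of that list did not pass. NES, an intermediate filament of myoblasts and neural progenitors, rose by 1.61 on the log2 scale (adjusted p = 2.55e-10).

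The genes with the largest decreases were mainly those of connective tissue and vessels. By the same rule GUCY1A1, LUM, NXPH1, COL3A1, ERG, IGFBP7, COL15A1, COL1A1, COL11A1 and COL6A1 were named, with log2 fold changes of -1.66 to -1.34. COL3A1, a fibrillar collagen, stood at 131 and 288 CPM in the KO libraries, 880.5 and 1008 CPM in the DATG libraries and 345 and 545 CPM in the WT libraries, against 282 and 920.4 CPM in KO, 1614 and 2587 CPM in DATG and 877 and 2223 CPM in WT in the other nuclei (log2 fold change -1.51 ± 0.14 SE, adjusted p = 7.61e-26). It was lower in all 6 libraries, and its level in muscle nuclei was high where the other nuclei were high. Of 14 mesenchyme and fibroblast genes 13 were lower (median -1.04), and 6 of 10 endothelial genes (median -0.98), counts that were 13 and 4 with RLE scaling and 8 and 1 with DESeq2. With at least 4 rule genes 13 and 3 were lower, and with at least 5 rule genes in 4 libraries 12 and 2. Among all tested genes 442 of 24182 were lower with RLE scaling and 151 of 35851 with DESeq2. With at least 4 rule genes these were 1205 of 23411, and with at least 5 they were 1310 of 23743. The mesenchyme genes together made up 8.49 and 16.2 in KO, 40.1 and 47.2 in DATG, and 20.8 and 23.3 in WT of every 10000 UMIs of muscle nuclei, against 16.4 and 39.3 in KO, 68.1 and 98.1 in DATG, and 42.4 and 76.3 in WT in the other nuclei, and whether free RNA gave those in muscle nuclei was not tested.

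Markers of other muscle types did not rise as a group. Of 13 cardiac genes NPPB was higher, on 12 UMIs of WT replicate 1 alone, and TBX5, HAND2 and CORIN were lower, while NKX2-5 and MYH6 were too low to test. Of 9 smooth muscle genes 0 were higher and ACTA2 and MYOCD were lower. DES, desmin, which all muscle shares, had a log2 fold change of 3.27 that did not pass (adjusted p = 0.112). Of 13 mitochondrially encoded genes 7 were lower (median -0.66), 3 with RLE scaling and 0 with DESeq2. As a share of UMIs these genes were lower in muscle nuclei in 4 libraries, but they made up 71.4 of every 10000 UMIs of muscle nuclei against 52.1 of the other nuclei in DATG replicate 2, and 7.72 against 6.93 in WT replicate 2. Among the other cell types whose nuclei or free RNA could lie in these sums, 1 of 16 neuron genes was higher and 2 were lower, 1 of 10 neural progenitor genes (NES) was higher and 3 were lower, and 1 of 7 Schwann and neural crest genes was higher and 1 was lower. The neuron count depended on the setting. With at least 4 rule genes 2 were higher and 8 lower, and without WT replicate 2 these were 2 and 7. With RLE scaling 1 was higher and 1 lower, and with DESeq2 1 and 0. Of 10 gut, 9 hepatocyte, 9 chondrocyte, 7 melanocyte and 8 macrophage and blood genes 0 were higher and 0, 2, 1, 0 and 1 were lower. Hepatocyte genes called lower were 7 with at least 4 rule genes and 2 with at least 5 in 4 libraries. Over all genes 1205 of 23411 were lower with at least 4 rule genes and 1310 of 23743 with at least 5. Without WT replicate 2 these were 900 of 23915, with RLE scaling 442 of 24182 and with DESeq2 151 of 35851. Of 10 immediate early and heat shock genes 0 passed the test in either direction.

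Among 15 cell cycle genes TOP2A was lower (log2 fold change -0.62 ± 0.17 SE, adjusted p = 0.00708), the other 14 did not pass, and the median was -0.36. With at least 4 rule genes 6 of these genes were lower, and with at least 5, in 4 libraries, 9 were lower, a limit chosen after the data were seen. Over all genes 1205 of 23411 and 1310 of 23743 were lower in these 2 settings. MKI67 had 23.7 CPM in nuclei with 5 to 7 rule genes, 33.2 CPM in those with 4 and 60.1 CPM in those with 3, against 50.1 CPM in nuclei with none. In the 4 libraries with 10 or more nuclei with 5 to 7 genes, the cell cycle list made up 4.31 and 1.06 of every 10000 UMIs in KO, 1.14 in DATG replicate 1 and 8.76 in WT replicate 1, against 10.2, 8.82, 7.70 and 10.5 in the other nuclei of these libraries.

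**Figure D5:**
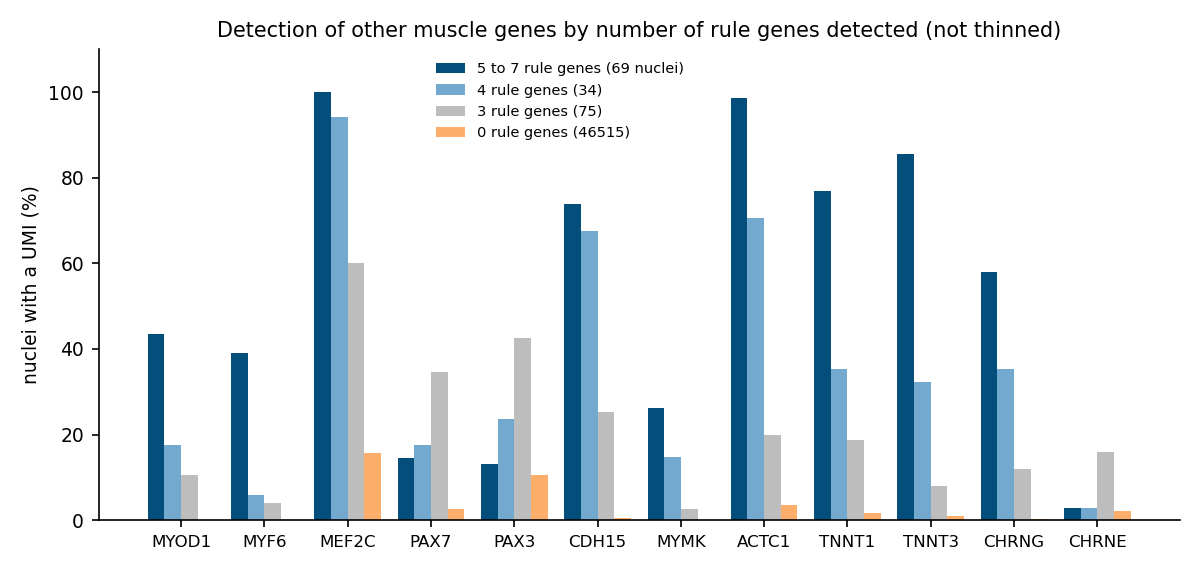
Share of nuclei (%) with at least 1 UMI for 12 muscle genes, by the number of rule genes detected (colours, number of nuclei in brackets), without thinning. MYOD1, ACTC1, the troponins and CHRNG were detected most often in nuclei with 5 to 7 rule genes, and PAX7, PAX3 and CHRNE in the deeper nuclei with 3.

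Depth differs between these classes, so shares were also taken after thinning to 1000 UMIs. ACTC1 then had a UMI in 81.2% of nuclei with 5 to 7 rule genes, 42.5% of all muscle nuclei and 1.39% of other nuclei, against 98.6%, 60.1% and 3.69% before thinning. MYOD1 had 5.80%, 4.60% and 0.0282% after thinning. PAX7 had 0% (0 of 69, which allows up to 4.35%), 1.72% and 1.03%, so a difference was not detectable at this depth.

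Between the groups, muscle nuclei were compared over the 5 libraries with at least 10 of them, which leaves out WT replicate 2. No gene of 10172 tested passed in KO against WT, DATG against WT or DATG against KO (0% called in each). At an unadjusted p under 0.05 edgeR gave 304, 311 and 414 genes, and DESeq2 called 0, 0 and 14 genes. WT is then 1 library assumed to vary like the others. The count of 0 depended on the libraries in the fit: without DATG replicate 1 edgeR called 298, 210 and 775 genes, and without DATG replicate 2 it called 268, 284 and 107. With all nuclei thinned to 1000 UMIs only 1107 genes could be tested, and 0 were called in each comparison. The genes below are those with the smallest unadjusted p under the naming rule, and none passed with all 5 libraries.

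AGBL1 was 134 and 181 CPM in KO and 10.0 CPM in WT replicate 1 (log2 fold change 4.01 ± 0.70 SE, edgeR adjusted p = 0.908), with 43.4 CPM in WT replicate 2. CSRP3 was 51.6 and 78.6 CPM in KO, against 3.34 and 0 CPM in WT (log2 fold change 4.23 ± 1.15 SE, edgeR adjusted p = 1.000). ACSM3 was 3.23 and 2.62 CPM in KO, 6.65 and 11.6 CPM in DATG and 170.2 and 33.8 CPM in WT (log2 fold change -5.63 ± 0.65 SE, edgeR adjusted p = 0.177). RBPJL, a factor of pancreatic acinar cells, and APOA1, an apolipoprotein of liver and gut, were also lower in both KO libraries than in both WT libraries. RBPJL was 0 and 0 CPM in KO, 0 and 5.79 CPM in DATG and 105 and 62.7 CPM in WT. APOA1 was 3.23 and 2.62 CPM in KO, 9.97 and 28.97 CPM in DATG and 139 and 4.82 CPM in WT, so WT replicate 2 lay below both DATG libraries. In the other nuclei RBPJL was 0.943 and 4.21 CPM in KO and 79.0 and 27.4 CPM in WT, so KO was below WT outside muscle too. The same held for ACSM3 (10.9 and 16.4 CPM in KO, 95.7 and 54.7 CPM in WT) and APOA1 (12.4 and 9.14 CPM in KO, 46.9 and 57.6 CPM in WT). CSRP3 overlapped between the groups there (1.05 and 0.345 CPM in KO, 0.264 and 0.347 CPM in WT). In muscle nuclei of the DATG libraries it was 46.5 and 5.79 CPM. The 7 rule genes made up 30.2 and 40.5 of every 10000 UMIs of muscle nuclei in KO, and 16.6 and 1.69 in WT. Whether this lower share of muscle RNA gave the CSRP3 difference was not tested. The hepatocyte list made up 10.5 of every 10000 UMIs in the WT replicate 1 nuclei with 3 rule genes and 1.48 in those with 5 to 7. CDC20B was the last of the 4 named lower genes and NELL1 and PEG10 were the other named higher genes. For DATG against WT, which shares the WT library, the named genes were LUM, NELL1, PEG10 and RPL9 among higher ones and ACSM3, RHEX, JAKMIP2-AS1 and GREB1 among lower ones, all with an adjusted p of 1.00.

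Between DATG and KO the smallest p among genes higher in DATG were those of COL1A1, SLC30A10, LUM and COL1A2, and among genes lower in DATG those of ADAMTS18, PTPRZ1, GLIS3 and RHEX. COL1A1, a chain of type I collagen, was 854 and 956 CPM in DATG and 92.0 and 209.6 CPM in KO (log2 fold change 2.61 ± 0.49 SE, edgeR adjusted p = 0.949), and LUM was 96.4 and 81.1 CPM in DATG and 16.1 and 15.7 CPM in KO (log2 fold change 2.50 ± 0.51 SE, edgeR adjusted p = 0.949). In the other nuclei COL1A1 was 1518 and 2092 CPM in DATG and 177 and 665 CPM in KO, and LUM 151 and 249.9 CPM in DATG and 25.5 and 76.6 CPM in KO, the same order as in muscle. PTPRZ1 was 86.4 and 69.5 CPM in DATG and 318 and 304 CPM in KO, and RHEX 3.32 and 0 CPM in DATG and 51.6 and 134 CPM in KO. In the other nuclei PTPRZ1 was 231 and 95.8 CPM in DATG and 391 and 421 CPM in KO. RHEX was 19.1 and 6.17 CPM in DATG and 112 and 122 CPM in KO there, so both genes had the same order outside muscle. The naming rule admits only genes whose groups do not overlap, and the part of RNA from other nuclei in these values was not tested.

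H19, an imprinted long non-coding RNA that is abundant in embryonic muscle, was looked at after its values were seen. It had 0 UMIs in the muscle nuclei of both DATG libraries, against 29 and 16 UMIs (46.8 and 41.9 CPM) in KO and 25 and 11 UMIs (41.7 and 53.1 CPM) in WT. A count of 0 allows up to 9.97 and 17.4 CPM in the DATG libraries. The other nuclei held 0.895 and 0.690 CPM in DATG, 21.3 and 51.8 CPM in KO and 84.7 and 127 CPM in WT, so DATG was lowest outside muscle as well.

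Whether the difference between muscle and other nuclei differed between groups was tested as an interaction over all 6 libraries. It was called for 65 genes in KO against WT (0.269% of 24182), 84 in DATG against WT (0.347%) and 12 in DATG against KO (0.0496%). DESeq2 called 0, 5 and 0, and without WT replicate 2 edgeR called 16, 19 and 8. TPM2, a tropomyosin of slow and embryonic fibres, was among those called in KO against WT: in muscle nuclei it was 436 and 217 CPM in KO and 46.7 and 28.9 CPM in WT, against 38.8 and 42.2 CPM in KO and 33.0 and 43.2 CPM in WT in the other nuclei. As given above, 4 of the 5 nuclei of WT replicate 2 were deep and low in muscle RNA. In WT replicate 1 the 13 nuclei with 3 rule genes had a median of 29882 UMIs. They held 68.0% of the UMIs of its muscle nuclei, against 55.4% and 51.2% in KO. The part of these nuclei in the calls was not tested.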

How the data were processed

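The authors deposited UMI counts per gene and nucleus (10x Single Cell 3' v3.1 chemistry) over human and mouse genes, made with Cell Ranger 8.0.1 on GRCh38 and GRCm38 per the submitters' processing notes, while the file headers name Cell Ranger 8.0.0. The labels and headers do not state the counting options. Nuclei were kept at the limits given at the start of the report. Scrublet in scanpy 1.11.5 (Python 3.11.15) called doublets at 0.8% per 1000 nuclei, and they were kept. Counts were summed per library and tested with edgeR 4.0.16 (R 4.3.3, TMM, filterByExpr, robust quasi-likelihood, Benjamini-Hochberg over all genes tested), with DESeq2 1.42.0 as an alternative, after a test on simulated data. Exact intervals and permutation tests used SciPy 1.17.1.

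The rule genes and lists were chosen with earlier results of these data known. For muscle against other nuclei the text names, per direction, the 10 called genes with the largest fold change, the same direction in every library and a mean of at least 50 CPM. From each list it may name the 5 genes of highest level and any regulator or fibre type gene, and other list genes are named as examples after their values were seen. Within muscle, where fewer than 4 genes passed, the 4 of smallest unadjusted p with groups that do not overlap are named. Replicates 1 and 2 of different groups are not stated to be paired. The numbers were therefore not taken as pairs. Deviations of same-numbered libraries in muscle nuclei had correlations of 0.0977 (KO and DATG), -0.137 (KO and WT) and -0.0428 (DATG and WT) over 7586 genes. Those sums rest on as few as 5 muscle nuclei a library (WT replicate 2), so the correlations cannot decide whether the libraries are paired. Library and group totals give the depth, and intervals cover counting error only. Some genes of the lists are counted but not reported here by name.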

Additional observations from a re-analysis of the deposited data

Results flagged for a closer look

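Host muscle nuclei were most numerous in DATG replicate 2. In DATG replicate 2, 22 of 547 mouse nuclei had a UMI for at least 3 of the mouse orthologues of the 7 rule genes, against 0 or 1 mouse nuclei in each other library. The same held for 117 barcodes of DATG replicate 2 that had RNA of both species, against 0 to 2 in each other library. UMIs of adult mouse muscle genes were found in 70.2% of the other human nuclei of DATG replicate 2 and in 10 of its 12 human muscle nuclei, with 41 such UMIs, and in 0 human muscle nuclei of the other 5 libraries. In those 22 mouse nuclei, which held 996 UMIs of the mouse orthologues, 0 of 5938 human UMIs were of the 7 human rule genes. The other human nuclei of that library had only 0.344 such UMIs in every 10000. These data lie outside the comparisons of human nuclei and are given because the signal in 1 library was above the level in the WT libraries.

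The difference between muscle and other nuclei itself differed between groups, by edgeR's test of the interaction, for 65 genes in KO against WT, 84 in DATG against WT and 12 in DATG against KO. The genes of smallest p, chosen after their values were seen, are given with the log2 difference of the muscle over other contrast between groups. In KO against WT they were LINC00578 (2.69 ± 0.36 SE), COBL (2.90 ± 0.40 SE), LINC01091 (2.70 ± 0.41 SE), TPM2 (2.87 ± 0.43 SE) and STARD13 (2.06 ± 0.34 SE). In DATG against WT they were GPC5 (-2.87 ± 0.40 SE), NRXN3 (-2.22 ± 0.34 SE), COBL (2.56 ± 0.40 SE), LINC00578 (2.25 ± 0.36 SE) and GLIS3 (-2.27 ± 0.39 SE). In DATG against KO they were NCAM2 (-1.94 ± 0.39 SE), ZNF385B (2.09 ± 0.43 SE), DSCAML1 (2.10 ± 0.43 SE), LINC01091 (-1.99 ± 0.42 SE) and PDE4B (-1.84 ± 0.42 SE). All had an adjusted p of 0.0409 or less. LINC00578, a long non-coding RNA, had 224 and 600.1 CPM in KO and 307 and 48.2 CPM in WT muscle nuclei, against 12.1 and 26.9 CPM in KO and 52.0 and 45.8 CPM in WT in the other nuclei. GPC5, a glypican, had 26.6 and 139 CPM in DATG and 252 and 207 CPM in WT muscle nuclei, against 271 and 383 CPM in DATG and 168 and 147 CPM in WT in the other nuclei. In KO against WT, 4 of the 5 genes (TPM2 being the exception) were lower in the other nuclei of both KO libraries than in those of both WT libraries. In WT replicate 1, nuclei with 3 rule genes held 68.0% of the muscle nuclei's UMIs, against 55.4% and 51.2% in KO. WT replicate 2 stands apart in depth and muscle RNA as described. Without it 16, 19 and 8 genes were called, and DESeq2 called 0, 5 and 0.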

How the results depend on the processing

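The share of muscle nuclei in KO against WT stayed higher in KO in 10 of 11 alternatives and that in DATG against KO stayed lower in DATG in all 11. DATG against WT reversed with at least 2 rule genes (-0.286 percentage points) and with at least 5 (-0.00347 points, a limit added after the data were seen). Leaving out each library gave differences of -0.00981 (without WT replicate 2) to 0.437 points (without WT replicate 1) in KO against WT, of -0.199 to 0.248 points without the same libraries in DATG against WT (-0.0670 without DATG replicate 1), and of -0.280 to -0.0973 points in DATG against KO. For muscle against other nuclei, leaving out a library gave 567 to 892 genes called higher and 544 to 900 called lower. Genes called lower were 442 with RLE factors, 151 with DESeq2 and 1310 with at least 5 rule genes in 4 libraries, which was added after the data were seen. Without the library as a replicate block 254 genes were called higher and 15 lower. All 20 genes named by fold change kept their direction in every alternative run, and TRIM55 and TNNT2 were among those that lost their call.

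Within muscle nuclei, edgeR called 0 genes in each of the 3 comparisons, and this changed with the setting. In KO against WT, DATG against WT and DATG against KO, in that order, the counts were 52, 30 and 86 with no filter, 49, 77 and 20 with at least 4 rule genes, 32, 55 and 13 with at least 5 (added after the data were seen), and 176, 1 and 0 with the libraries of the 2 groups alone. DESeq2 called 0, 0 and 14. Leaving out each library gave 0 to 298, 0 to 284 and 0 to 775 genes, the highest without DATG replicate 1 (KO against WT, DATG against KO) or 2 (DATG against WT). With the replicate number as a block 0 genes were called in each comparison, though the numbers are not known to pair the libraries. Without WT replicate 1 the comparisons with WT could not be fitted. Including WT replicate 2, added after the data were seen, gave 0 calls in each.

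The interaction gave 12 to 137, 19 to 203 and 2 to 134 genes in the same order when 1 library was left out, 0, 5 and 0 with DESeq2, 21, 16 and 0 with at least 4 rule genes, and 190 (DATG against WT) and 20 (DATG against KO) without called doublets. For each of these changes the cause was not tested. With 5 to 57 muscle nuclei a library, depth limits what can be seen of low genes: a count of 0 allows 4.84 CPM (KO replicate 1) to 17.4 CPM (DATG replicate 2).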
